A study of Mus musculus with 4 samples.

Results

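Fibroblast growth factors (FGFs) are secreted proteins that bind receptor tyrosine kinases together with heparan sulfate and activate the MAP kinase cascade in the receiving cell. The cascade induces transcription factors of the ETS family and also its own inhibitors, the Sprouty and Spred proteins and the phosphatase DUSP6. In skeletal muscle, FGFs are known as mitogens of satellite cells and fibroblasts, and fibro-adipogenic progenitors (FAPs), the stromal progenitors between the fibres, are among the cells that make them. Transcripts of 10 genes of the family were followed here among the 24421 gene symbols counted. They were taken by symbol and comprise the ligands Fgf2, Fgf7, Fgf9, Fgf10 and Fgf18, the receptors Fgfr1, Fgfr2, Fgfr3 and Fgfr4, and Fgfrl1, a receptor-like protein without a kinase domain.

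RNA was sequenced in bulk from DPPIV- and DPPIV+ FAPs sorted from the same 2 wild-type mice, for a total of 4 libraries (n = 2 for each population). The FAPs were gated as PI- CD31- CD45- Sca1+ cells and split by DPPIV, the surface peptidase encoded by Dpp4. Both mice had received a CSF1R inhibitor for 3 weeks, which depletes resident macrophages, and then a regular diet for 3 days, so no library comes from an untreated mouse. The mice were adult, with no closer age given for them, and the labels name the tibialis anterior as the source but describe the dissection of both hindlimbs. The comparison asks which transcripts distinguish DPPIV+ from DPPIV- FAPs shortly after macrophage depletion.

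The libraries held between 18240110 and 20879405 counted reads. Dpp4 reached 651 ± 108 CPM (read counts scaled to the same library total, mean ± SD, n = 2) in the DPPIV+ libraries against 64.7 ± 35.4 CPM in the DPPIV- libraries, and its log2 fold change of 3.41 had the direction of the sort. The FAP marker Pdgfra stood at 1567 ± 128 and 1200 ± 57.7 CPM in DPPIV- and DPPIV+ FAPs, and Ly6a, which encodes Sca1, at 981 ± 25.6 and 1464 ± 10.3 CPM. Of 6 FAP markers, edgeR and DESeq2 each called 4 lower and 1, Ly6a, higher in DPPIV+ FAPs. Lum fell most, from 2117 ± 396 to 1163 ± 38.6 CPM, and Col3a1 was not called. Markers of several other cells differed as well. As a baseline, edgeR called 15.9% of all genes tested higher and 17.2% lower, and DESeq2 7.97% and 8.59%. Of 6 mural cell markers, 5 were lower in DPPIV+ FAPs in edgeR and 3 in DESeq2, and the list summed to 121 and 123 CPM against 51.2 and 63.5 CPM. Of 5 tenocyte markers, 4 were higher in edgeR and DESeq2, and edgeR alone called Thbs4 lower, which fell from 1602 to 1153 CPM in mouse 1 but stood at 2096 and 2217 CPM in mouse 2. The list had sums of 1798 and 2391 CPM against 1902 and 3767 CPM. Of 5 satellite cell markers, Vcam1 was lower and made nearly all of the sums, 89.0 and 90.8 CPM against 24.9 and 30.0 CPM. Pax7 had 7 to 10 reads and Myod1 3 to 13 reads per library, with no fall in Myod1. Cdh15 fell from 16 to 5 reads in mouse 1 and from 17 to 8 reads in mouse 2, and Myf5 had 0 to 5 reads per library. Of 6 blood endothelial markers, Tek was higher by both tools and made most of the sums, 262 and 191 CPM against 511 and 466 CPM. The 4 endothelial markers that edgeR called lower were not called by DESeq2, and in mouse 2 Pecam1 was level (11.2 CPM in both libraries). Among 6 haematopoietic and macrophage markers, edgeR called Adgre1 and Csf1r lower and DESeq2 called none. Their list summed to 77.1 and 52.3 CPM against 54.8 and 46.1 CPM. Neither tool called any of 6 myofibre markers, with sums of 42.8 and 64.8 CPM against 46.7 and 65.9 CPM. Each sum is given for mouse 1 and then mouse 2. None of the mural, tenocyte or endothelial markers was at 0, and the part of all these markers in the results on FGF genes was not tested. In bulk RNA, fewer cells of a type and less RNA per cell cannot be told apart.

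Of the 10 genes, 7 reached 2 CPM in at least 2 libraries and were tested, and 5 of them passed a Benjamini-Hochberg adjusted p of 0.05 by edgeR, fitted with mouse as a term. Fgf2, Fgf18 and Fgfr1 were higher in DPPIV+ FAPs and Fgf7 and Fgfrl1 were lower, with folds between 0.676 and 2.47. Over all genes tested, 15.9% were called higher and 17.2% lower by the same rule. DESeq2's Wald test, which called 7.97% of genes higher and 8.59% lower, called Fgf2 and Fgfr1 higher and Fgfrl1 lower but neither Fgf7 nor Fgf18. The median log2 fold change was 0.01 over the 7 genes and -0.00199 over all 11588 genes tested. Fgf9, Fgfr3 and Fgfr4 stayed under the filter.

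The bases upstream of 3 genes are shown because edgeR called them different between the cell types and the window before the start holds no annotated exon base (GENCODE M21). Of these 3, DESeq2 called only Fgfrl1. The Fgf7 and Fgf18 windows end where the gene begins, and the Fgfrl1 window lies in an intron of the longer GENCODE gene. RefSeq promoter windows on GRCm38.p6 were matched by symbol for 9 of the 10 genes, and the 250 bases before the start are given here on the strand of the gene. Capitals mark a GC box, GGGCGG on either strand, or a CCAAT box, CCAAT on either strand. The Fgf7 window lies at chr2:126034408-126034657 on the plus strand, the Fgf18 window at chr11:33147401-33147650 on the minus strand and the Fgfrl1 window at chr5:108693979-108694228 on the plus strand.
Fgf7: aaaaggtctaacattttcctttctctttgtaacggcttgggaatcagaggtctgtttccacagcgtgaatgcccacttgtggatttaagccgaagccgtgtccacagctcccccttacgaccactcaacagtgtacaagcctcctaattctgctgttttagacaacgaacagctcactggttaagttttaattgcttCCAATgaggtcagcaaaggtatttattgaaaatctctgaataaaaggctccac
Fgf18: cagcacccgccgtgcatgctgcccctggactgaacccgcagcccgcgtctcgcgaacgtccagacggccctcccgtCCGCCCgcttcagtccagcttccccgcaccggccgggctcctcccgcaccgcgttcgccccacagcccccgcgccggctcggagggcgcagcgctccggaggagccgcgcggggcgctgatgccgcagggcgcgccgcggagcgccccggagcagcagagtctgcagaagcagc
Fgfrl1: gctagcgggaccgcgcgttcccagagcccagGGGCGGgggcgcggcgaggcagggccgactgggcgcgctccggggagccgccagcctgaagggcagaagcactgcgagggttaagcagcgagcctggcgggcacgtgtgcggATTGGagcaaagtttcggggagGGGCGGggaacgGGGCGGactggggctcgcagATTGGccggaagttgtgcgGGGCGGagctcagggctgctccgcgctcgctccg

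The windows differed in base composition. That of Fgf7 was 43.6% G and C with 1 CCAAT box and 0 GC boxes, that of Fgf18 was 77.2% with 1 GC box, and that of Fgfrl1 was 73.6% with 4 GC boxes and 2 CCAAT boxes. Over all 32851 windows of 250 bases in the table, the median was 52.4%, with a GC box in 32.7% and a CCAAT box in 33.8%. The matches describe letters in these windows and not sites shown to be bound.

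**Figure D1:**
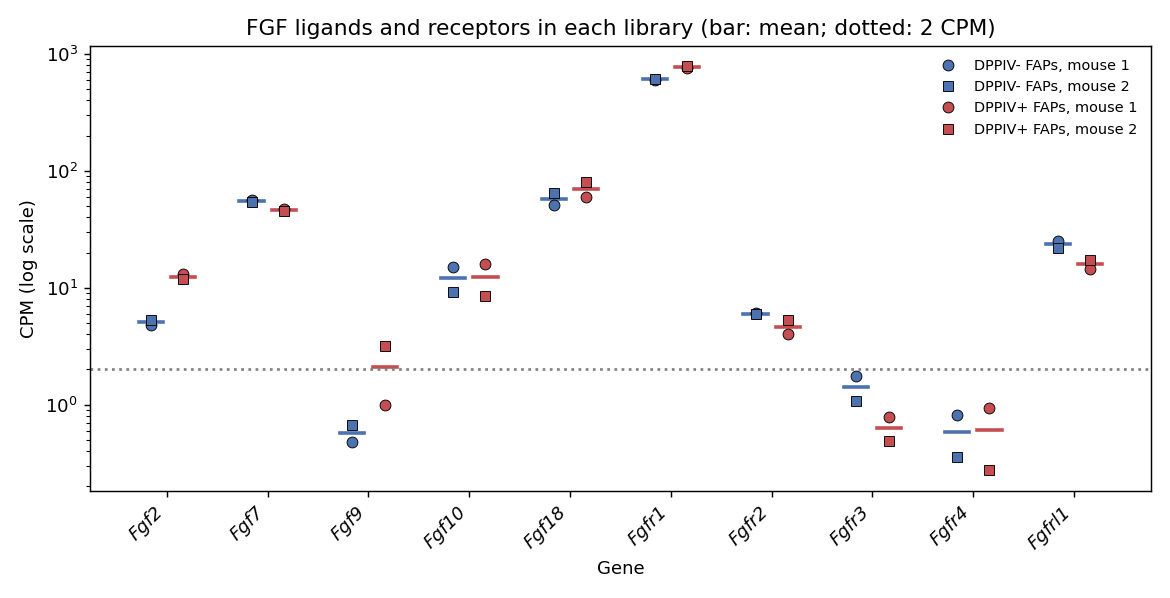
CPM of the 10 FGF ligands and receptors on a log axis, with 1 point per library (circles mouse 1, squares mouse 2, blue DPPIV- and red DPPIV+ FAPs), bars at the mean of both mice and a dotted line at 2 CPM. Fgf2 and Fgfr1 lie higher in both DPPIV+ libraries, Fgf7 and Fgfrl1 lie lower, and Fgf9 in DPPIV+ FAPs of mouse 2 stands at 3.18 CPM.

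Among the ligands tested, Fgf2 had the largest fold change. Fgf2 encodes basic FGF, a broad mitogen of mesenchymal cells, and lies on chromosome 3 of GRCm38 from 37348346 to 37410108. The DPPIV- libraries of mouse 1 and mouse 2 held 4.83 and 5.27 CPM of Fgf2, and the DPPIV+ libraries held 13.1 and 11.9 CPM. Both DPPIV+ libraries were therefore above both DPPIV- libraries, by more than the spread between the mice. The log2 fold change was 1.31 (SE 0.17, edgeR adjusted p = 1.29e-13), and DESeq2 gave an adjusted p of 7.10e-05. Of the exon bases of Fgf2, 640 (9.44%) lie in exons of Nudt6 on the opposite strand, and whether the counting used strand is not stated. Nudt6 had between 48 and 71 reads per library, with the highest count in DPPIV- FAPs of mouse 1, against 101 to 235 reads of Fgf2.

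Fgf18 and Fgf7 had the most reads of the 5 ligands, and they moved in opposite directions by small amounts. Fgf18, a ligand best known from bone and cartilage growth, had 50.7 and 60.1 CPM in the DPPIV- and DPPIV+ libraries of mouse 1, and 65.1 and 80.4 CPM in those of mouse 2. The groups overlapped, since DPPIV- FAPs of mouse 2 were above DPPIV+ FAPs of mouse 1, while within each mouse the DPPIV+ library was higher. The log2 fold change of Fgf18 was 0.28 (SE 0.07, edgeR adjusted p = 0.000264), and the call was lost in DESeq2 (adjusted p = 0.154) and in edgeR without mouse in the model (adjusted p = 0.318).

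Fgf7, also called keratinocyte growth factor, is made by mesenchyme and acts on epithelium. Mouse 1 gave 56.6 CPM in DPPIV- against 47.6 CPM in DPPIV+ FAPs, and mouse 2 gave 54.3 against 45.04 CPM. The groups did not overlap, and the ratio of DPPIV+ to DPPIV- FAPs was 0.841 in mouse 1 (95% exact counting interval 0.769 to 0.919) and 0.829 in mouse 2 (0.756 to 0.909). The log2 fold change was -0.26 (SE 0.07, edgeR adjusted p = 0.00152). DESeq2 did not call Fgf7 (adjusted p = 0.259), nor did edgeR without mouse in the model (adjusted p = 0.0636).

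Fgf10, the closest relative of Fgf7 and likewise a mesenchymal ligand of FGFR2, stood at 15.1 and 16.1 CPM in the DPPIV- and DPPIV+ libraries of mouse 1 and at 9.20 and 8.56 CPM in those of mouse 2. It differed more between the mice than between the cell types, and was 1.64 times higher in mouse 1 in DPPIV- FAPs and 1.88 times higher in DPPIV+ FAPs. Between the cell types, the log2 fold change was 0.01, with a 95% interval from -0.27 to 0.28 (edgeR adjusted p = 0.975).

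Fgf9, a ligand that acts on mesenchyme, was near the limit of detection. In mouse 1 it was read 10 times in DPPIV- and 18 times in DPPIV+ FAPs (0.478 and 1.00 CPM), and in mouse 2 it was read 13 and 58 times (0.665 and 3.18 CPM). Both DPPIV+ libraries were above the DPPIV- libraries, but the difference was larger in mouse 2. There the ratio was 4.79 (95% exact counting interval 2.59 to 9.52), against 2.09 (0.916 to 5.07) in mouse 1, where the interval includes 1. Without a filter on low counts, when edgeR called 11.2% of genes higher and 11.9% lower, Fgf9 had a log2 fold change of 1.80 (SE 0.45, adjusted p = 0.000546). The tenocyte marker Fmod was also highest in DPPIV+ FAPs of mouse 2, with 26329 reads against 12402 in DPPIV+ FAPs of mouse 1 and 3507 and 5078 in DPPIV- FAPs, and its part in the Fgf9 counts was not tested.

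**Figure D2:**
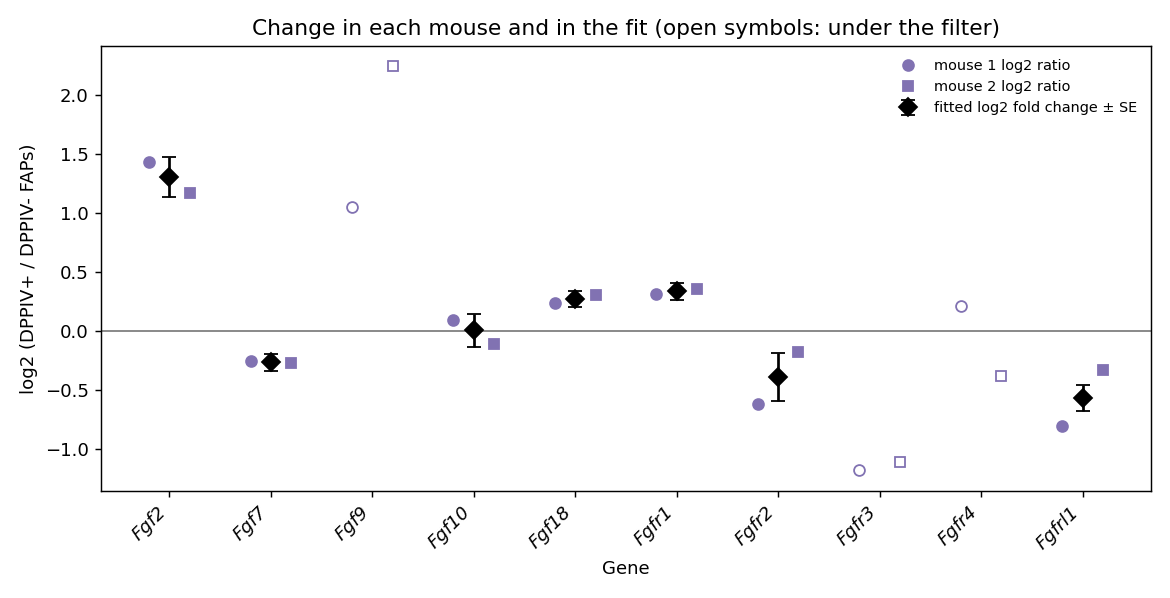
Log2 ratio of DPPIV+ to DPPIV- FAPs for each gene, with black diamonds for the fitted log2 fold change ± SE, circles for mouse 1 and squares for mouse 2, and open symbols for the genes under the filter. Fgf2, at 1.31, stands apart from the other tested genes, which lie between -0.56 and 0.34, and the open symbols of Fgf9 lie at 1.05 and 2.25.

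Among the receptors, transcripts of Fgfr1 rose and those of Fgfrl1 fell in DPPIV+ FAPs. Fgfr1, on chromosome 8 from 25513654 to 25575718, encodes the main FGF receptor of mesenchymal cells. It rose from 604 to 755 CPM in mouse 1 and from 614 to 786 CPM in mouse 2. The groups did not overlap, and the ratio of mouse 1 to mouse 2 was 0.985 in DPPIV- and 0.960 in DPPIV+ FAPs. The log2 fold change was 0.34 (SE 0.07, edgeR adjusted p = 6.98e-06), and the DESeq2 adjusted p was 0.000800. Reads of its alternative exons, which set the ligands that the receptor binds, were counted together.

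Fgfrl1, on chromosome 5 from 108692382 to 108706924, encodes a receptor-like protein that binds FGFs but has no kinase domain. It fell from 25.3 to 14.5 CPM in mouse 1 and from 21.9 to 17.4 CPM in mouse 2. The DPPIV- libraries were both higher, and the difference was larger in mouse 1, where the ratio was 0.572 (95% exact counting interval 0.492 to 0.665), than in mouse 2, where it was 0.797 (0.687 to 0.924). The log2 fold change was -0.56 (SE 0.11, edgeR adjusted p = 1.44e-06), and DESeq2 gave an adjusted p of 0.0443, close to its threshold.

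Fgfr2, the receptor whose epithelial form binds FGF7 and FGF10, stood at 6.12 and 3.999 CPM in the DPPIV- and DPPIV+ libraries of mouse 1 and at 5.93 and 5.27 CPM in those of mouse 2. Both DPPIV+ libraries were lower, but the difference was not called, with a log2 fold change of -0.38 (95% interval -0.79 to 0.02, edgeR adjusted p = 0.149). Of the exon bases of Fgfr2, 314 are shared with Ctbp2 on the same strand, which had between 478 and 780 reads per library. Fgfr3, known for restraining bone growth, was read 37 and 14 times in DPPIV- and DPPIV+ FAPs of mouse 1, and 21 and 9 times in mouse 2. Of its exon bases, 998 (13.9%) lie in exons of an opposite-strand gene that has no row in the count table. Its ratios were 0.440 in mouse 1 (95% exact counting interval 0.220 to 0.833) and 0.460 in mouse 2 (0.185 to 1.05), and without the filter its log2 fold change was -1.14 (SE 0.49, edgeR adjusted p = 0.0810). Fgfr4, a receptor of myogenic cells, had 17 reads in both libraries of mouse 1 and 7 and 5 reads in DPPIV- and DPPIV+ FAPs of mouse 2. No difference in Fgfr4 between the cell types was detectable at this depth, with ratios of 1.16 (0.558 to 2.42) and 0.767 (0.192 to 2.81). Pax7, a defining marker of satellite cells, was as low, with between 7 and 10 reads per library.

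**Figure D3:**
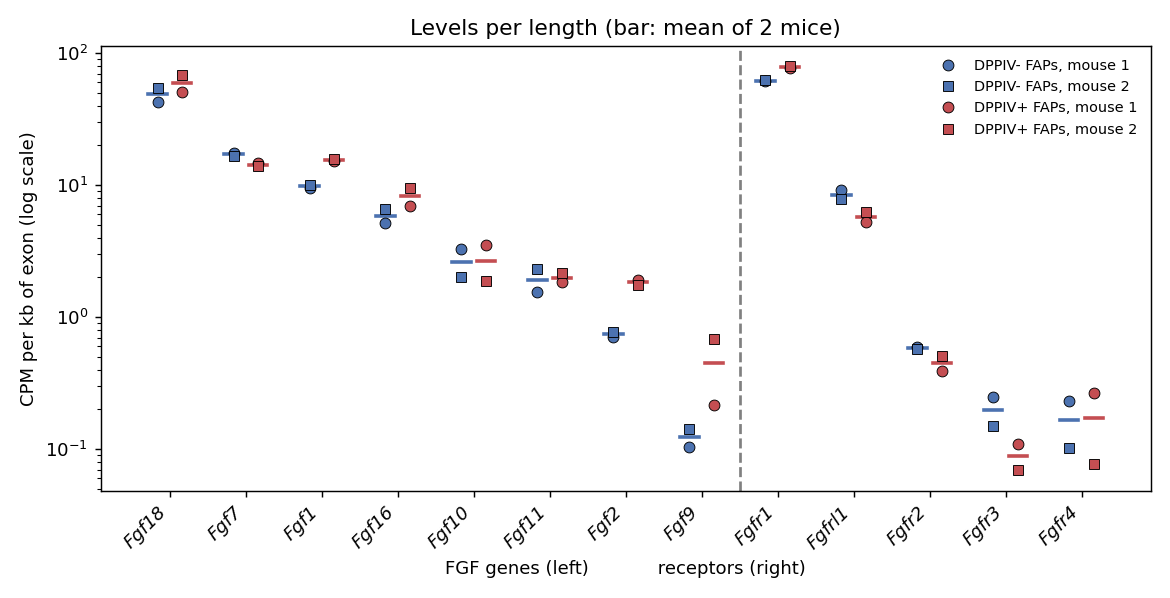
CPM per kilobase of exon on a log axis for FGF genes above the lowest levels (left of the dashed line) and the receptors (right), with 1 point per library and bars at the mean of both mice, coloured by cell type and shaped by mouse. Fgf18 leads the ligands at 48.8 and 59.2 CPM per kilobase in DPPIV- and DPPIV+ FAPs, and Fgfr1 leads the receptors at 61.7 and 78.0.

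Levels of different genes were compared per length, as CPM per kilobase of exon. Fgfr1 reached 61.7 ± 0.675 CPM per kilobase (SD, n = 2) in DPPIV- and 78.0 ± 2.26 in DPPIV+ FAPs. Fgfrl1 came next with 8.48 ± 0.876 and 5.74 ± 0.750, and Fgfr2, Fgfr3 and Fgfr4 were each under 0.6 CPM per kilobase in every library. Of the per-length level of the 5 receptor genes, Fgfr1 took 85.7% and 92.8% in DPPIV- and DPPIV+ FAPs of mouse 1, and 87.7% and 92.0% in those of mouse 2. Fgfrl1 took 12.8% and 6.32% in mouse 1 and 11.1% and 7.24% in mouse 2. The receptors of both cell types were thus mostly Fgfr1 by transcript level, with a smaller share of Fgfrl1 in DPPIV+ FAPs of each mouse. With 2 mice per cell type no exact test of these shares can reach 0.05, and none was run.

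Among the secreted ligands, Fgf18 had the highest per-length level, 48.8 ± 8.54 CPM per kilobase in DPPIV- FAPs and 59.2 ± 12.1 in DPPIV+ FAPs. Fgf7 followed in DPPIV- FAPs with 17.1 ± 0.497, ahead of Fgf1 with 9.76 ± 0.350. In DPPIV+ FAPs, Fgf1 with 15.5 ± 0.230 and Fgf7 with 14.3 ± 0.556 were close together, and Fgf1 was the higher in both mice. Fgf2 remained a minor transcript by this measure, with 0.744 ± 0.0458 and 1.84 ± 0.1195 CPM per kilobase, and took 0.876% of the per-length level of secreted ligands in DPPIV- FAPs and 1.82% in DPPIV+ FAPs.

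Other genes of the pathway were taken from a list of 58, of which 35 were tested. EdgeR called 10 higher and 11 lower in DPPIV+ FAPs, where it called 15.9% and 17.2% of all genes tested. DESeq2 called 5 higher and 6 lower, against 7.97% and 8.59% of all genes. The median log2 fold change of the 35 genes was 0.05.

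Of 17 other FGF genes, 3 were tested, 6 had 0 reads in all 4 libraries, and the other 8 had between 0 and 7 reads per library. A count of 0 allows up to 3 counts, or between 0.143 and 0.167 CPM, by counting error alone. Fgf1, or acidic FGF, which can bind every FGF receptor, rose from 51.9 to 83.6 CPM in mouse 1 and from 54.7 to 85.4 CPM in mouse 2. Both DPPIV+ libraries were above both DPPIV- libraries, with a log2 fold change of 0.66 (SE 0.07, edgeR adjusted p = 1.64e-21, DESeq2 adjusted p = 1.97e-06). Fgf16, a relative of Fgf9, had 8.46 and 10.8 CPM against 11.5 and 15.6 CPM, a log2 fold change of 0.49 that edgeR called (adjusted p = 0.00265) and DESeq2 did not (adjusted p = 0.215). Fgf11, whose product stays inside the cell, did not pass the threshold (edgeR adjusted p = 0.846).

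Among 7 co-receptors and FGF-binding proteins, the 2 tested were both higher in edgeR and in DESeq2. These tools called 15.9% and 7.97% of all genes tested higher. Flrt2 and Flrt3 encode membrane proteins that bind FGF receptors and guidance receptors. Flrt2 rose from 119 to 236 CPM in mouse 1 and from 110 to 172 CPM in mouse 2, with a log2 fold change of 0.82 (SE 0.07, edgeR adjusted p = 1.47e-32). Flrt3 had 6.16 and 5.67 CPM against 12.1 and 8.94 CPM, also a log2 fold change of 0.82 (SE 0.17, edgeR adjusted p = 9.65e-06, DESeq2 adjusted p = 0.0368). For both genes the DPPIV+ library of mouse 1 was the highest. The klotho co-receptors Kl and Klb, which endocrine FGFs need, had at most 10 reads and 0 reads.

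Of 10 heparan sulfate enzymes, 8 were tested. EdgeR called 2 higher and 1 lower, where it called 15.9% and 17.2% of all genes tested. DESeq2 called 1 higher and 1 lower, against 7.97% and 8.59% of all genes. Hs6st1 was called higher by edgeR alone (log2 fold change 0.21, DESeq2 adjusted p = 0.552). Sulf1, which removes sulfate groups from heparan sulfate outside the cell, rose from 425 to 601 CPM in mouse 1 and from 420 to 577 CPM in mouse 2 (log2 fold change 0.48, SE 0.07, edgeR adjusted p = 2.97e-11). Its relative Sulf2 had 317 and 327 against 315 and 344 CPM and was not called (edgeR adjusted p = 0.786). Hs2st1, a sulfotransferase, fell from 65.4 to 51.0 CPM in mouse 1 and from 61.5 to 47.3 CPM in mouse 2 (log2 fold change -0.37, SE 0.07, edgeR adjusted p = 1.08e-06). Of 10 adaptors and transducers, edgeR called Ptpn11 and Cbl higher and Plcg1 lower, all by less than 0.4 on the log2 scale, and DESeq2 called none of these 3 (adjusted p = 0.172, 0.391 and 0.458).

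**Figure D4:**
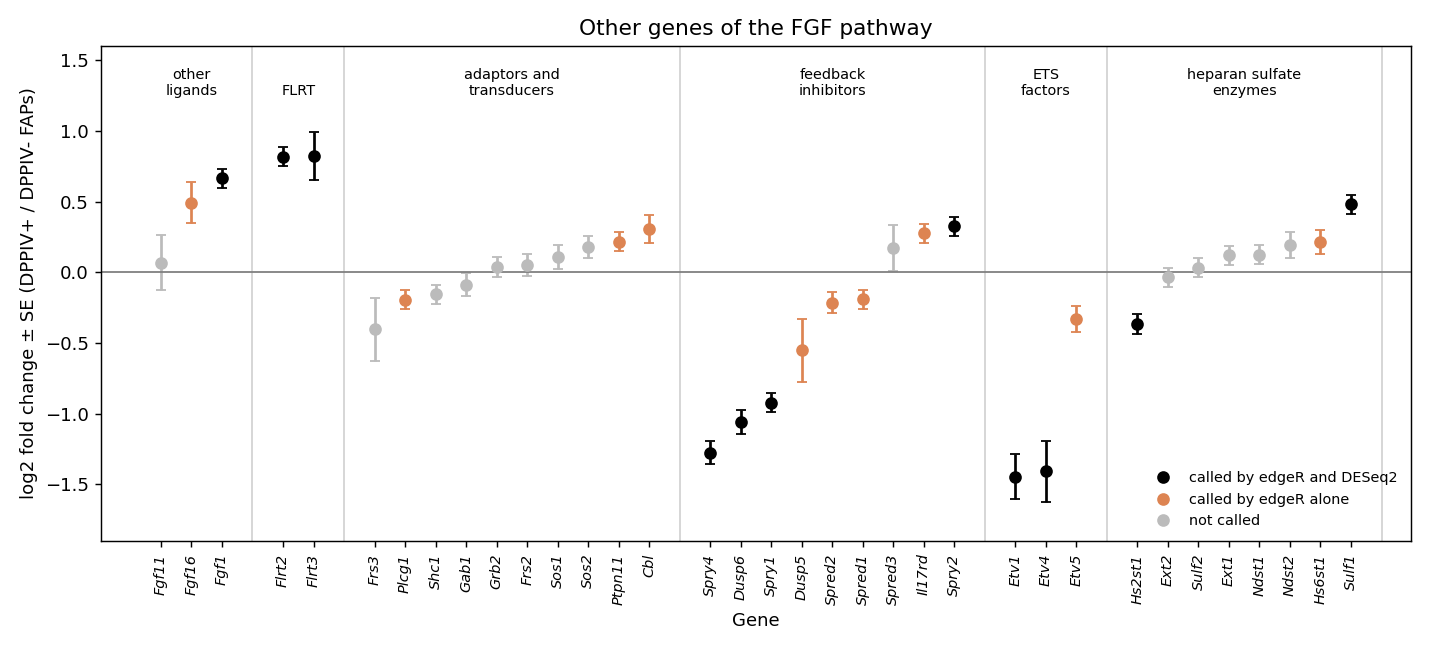
Fitted log2 fold change ± SE of the 35 tested pathway genes, grouped by role and ordered within each role, in black where edgeR and DESeq2 called the gene, orange where edgeR alone did, and grey where neither did. Spry4, Dusp6, Spry1, Etv1 and Etv4 lie between -1.45 and -0.92, below all other genes.

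The ETS factors, which FGF signalling is known to induce, were lower in DPPIV+ FAPs, all 3 in edgeR and Etv1 and Etv4 in DESeq2. EdgeR called 17.2% of all genes tested lower, and DESeq2 8.59%. Etv1 fell from 15.3 to 5.55 CPM in mouse 1 and from 15.3 to 5.71 CPM in mouse 2. The spread between the mice was small beside this difference, and the log2 fold change was -1.45 (SE 0.16, edgeR adjusted p = 3.85e-19, DESeq2 adjusted p = 9.14e-07). Etv4 had 7.02 and 8.38 CPM against 2.78 and 3.02 CPM, a log2 fold change of -1.41 (SE 0.21, edgeR adjusted p = 5.51e-10). Etv5 had 34.4 and 28.1 CPM against 26.2 and 23.4 CPM, a smaller log2 fold change of -0.33 that edgeR called (adjusted p = 0.00149) and DESeq2 did not (adjusted p = 0.252).

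The feedback inhibitors did not move as 1 group. Of 11, edgeR tested 9 and called 6 lower and 2 higher, and DESeq2 called 3 lower and 1 higher. Over all genes tested, the shares were 17.2% lower and 15.9% higher in edgeR, and 8.59% and 7.97% in DESeq2. Spry4, a Sprouty inhibitor of receptor signalling, fell from 54.2 to 22.5 CPM in mouse 1 and from 63.0 to 25.9 CPM in mouse 2 (log2 fold change -1.28, SE 0.08, edgeR adjusted p = 1.71e-53). Dusp6, the phosphatase of ERK, had 43.5 and 53.8 against 21.5 and 25.1 CPM (log2 fold change -1.06, SE 0.08, edgeR adjusted p = 3.41e-34). Spry1 had 257 and 201 against 119 and 120 CPM (log2 fold change -0.92, SE 0.07, edgeR adjusted p = 6.22e-41). For these 3 genes, both DPPIV+ libraries were below both DPPIV- libraries, and DESeq2 called them too.

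Spry2 went the other way, rising from 141 to 183 CPM in mouse 1 and from 144 to 174 CPM in mouse 2 (log2 fold change 0.33, SE 0.07, edgeR adjusted p = 6.08e-06, DESeq2 adjusted p = 0.0124). Il17rd, which encodes the FGF antagonist SEF, had 58.3 and 63.1 against 72.4 and 74.4 CPM and was called higher in edgeR alone (adjusted p = 0.000244, with 0.147 in DESeq2). Spred1, Spred2 and Dusp5 were called lower in edgeR alone, with log2 fold changes of -0.19, -0.21 and -0.55 and DESeq2 adjusted p-values of 0.322, 0.463 and 0.496. Spred3 had 8.65 and 8.18 against 9.94 and 8.997 CPM and was not called (edgeR adjusted p = 0.478). Of the other inhibitors, Dusp4 was under the filter, with 15 to 33 reads per library, and Spry3 was at 0. Markers of several other cells fell in the same libraries as Etv1, Etv4, Spry1, Spry4, Dusp6 and Fgfrl1. Among those called by both tools were the mural Notch3 with 22.2 ± 0.757 and 7.34 ± 0.639 CPM and Cspg4 with 69.7 ± 8.88 and 29.3 ± 9.39 CPM in DPPIV- and DPPIV+ FAPs, Vcam1 with 88.3 ± 1.38 and 26.0 ± 3.68 CPM, the perineurial Cldn1 with 3.29 ± 0.0520 and 1.02 ± 0.126 CPM and the glial S100b with 5.07 ± 0.666 and 2.125 ± 0.0206 CPM. Vcam1 comes from the satellite cell list, whose other markers were near the limit of detection and did not all fall. In DPPIV- and DPPIV+ FAPs, Pax7 had a mean of 0.423 and 0.441 CPM and Myod1 of 0.220 and 0.553 CPM. Cdh15 had 0.817 and 0.358 CPM and Myf5 0.119 and 0.0830 CPM. The part of all these markers in the falls was not tested.

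**Figure D5:**
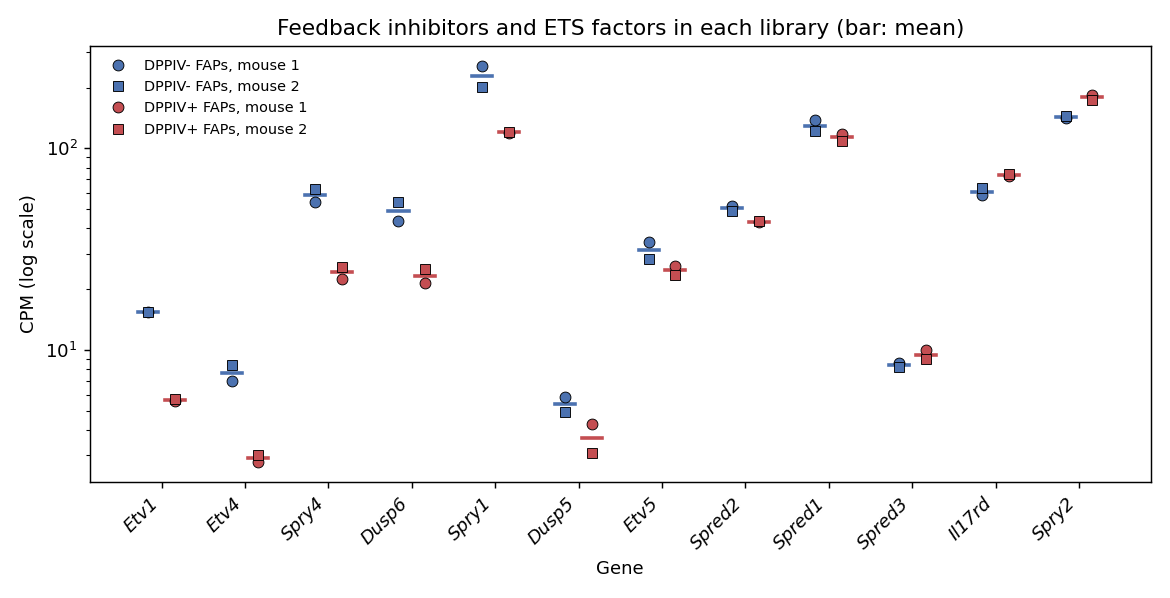
CPM on a log axis of the tested feedback inhibitors and ETS factors, ordered by log2 fold change, with 1 point per library (circles mouse 1, squares mouse 2, blue DPPIV- and red DPPIV+ FAPs) and bars at the mean. In Etv1, Etv4, Spry4, Dusp6 and Spry1 the red points lie well below the blue ones, while in Spry2 they lie above.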

How the data were processed

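The mRNA of 4 libraries was sequenced in paired ends. The authors demultiplexed the reads (bcl2fastq 2.20), aligned them to mm10 with STAR, tallied them per gene with RnaReadCounter and deposited raw counts, without normalization. The annotation release and strand setting are not given in the sources used here, and the labels and methods name different kits for stranded libraries. Counts were analysed in R 4.3.3 with edgeR 4.0.16 and DESeq2 1.42.0. The 11588 genes that reached 2 CPM in 2 or more libraries were normalized by TMM and tested by edgeR's quasi-likelihood F test on cell type with mouse as a block, two-sided, adjusted after Benjamini and Hochberg over all genes tested, at 0.05. The prior degrees of freedom were infinite, so each gene was given the dispersion of the trend at its abundance, and with 2 mice 1 residual degree of freedom remained. SE is the log2 fold change over the square root of F. Each mouse gave both cell types by its label, and the differences between the mice correlated between cell types (r = 0.428 across genes, which are not independent). CPM use TMM-scaled totals and exact intervals cover counting error only. Depth is given beside the results as a range over the libraries. With infinite prior degrees of freedom, these edgeR p-values set each difference against the spread typical of genes at that abundance. They do not measure the gene's own spread between the mice.

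As alternatives, DESeq2's Wald test was run, and edgeR with no mouse term, RLE factors, other filters, robust moderation, either mouse left out, and the longest transcript as gene length. The tests were checked on simulated data. Those counts were drawn around the fitted dispersion trend with no difference between mice, so they cannot show whether the p-values hold for these libraries. Gene models are GENCODE M21 on GRCm38 (the mm10 build), promoter windows are RefSeq's, exon overlaps came from the models, and a search with BLAST 2.17.0 for stretches of at least 97% identity over 50 bases returned only genes that overlap the FGF genes. The genes named are the 10 ligands and receptors, the pathway genes past the threshold with an absolute log2 fold change of at least 0.5, the tested feedback inhibitors and ETS factors, and Dpp4. Other pathway genes were named after their values were seen. The members and lists were chosen with earlier results of these data known.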

Additional observations from a re-analysis of the deposited data

How the results depend on the processing

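All 42 ligands, receptors and pathway genes tested kept their direction under each alternative that used both mice. Leaving out a mouse leaves a value with no test, and it turned the sign of 5 genes that were not called (Fgf10, Fgf11, Frs2, Grb2 and Sulf2) and of no called one. Without the replicate block, that is without mouse in the model, edgeR called 2120 genes (1001 higher and 1119 lower), 3 of the 7 ligands and receptors (1 lower) and 12 pathway genes (6 higher and 6 lower), against 3826, 5 and 21 with mouse in the model. DESeq2 called 1918 genes (923 higher and 995 lower), 3 ligands and receptors (1 lower) and 11 pathway genes (5 higher and 6 lower). Among ligands and receptors the calls lost were those of Fgf7 and Fgf18 in both settings, and the cause was not tested. RLE factors lost Dusp5 and robust moderation added Shc1. Robust moderation also lost the call of the sort marker Dpp4 (edgeR adjusted p = 0.178), whose log2 ratios were 3.02 in mouse 1 and 3.86 in mouse 2. DESeq2 called Dpp4 higher (adjusted p = 8.75e-16). With the longest transcript as gene length, Fgfr1 took 91.0% of the per-length receptor level in DPPIV- and 94.9% in DPPIV+ FAPs, and Fgf1 took 13.8% and 18.2% of the per-length ligand level, where that transcript holds 5041 of the 9875 exon bases of Fgfr1 and 3983 of the 5463 of Fgf1. Counts of at most 58 reads limit Fgf9, Fgfr3 and Fgfr4, and 2 mice limit every test.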

Other observations

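Some FGF genes differed between the 2 mice in both cell types, in comparisons chosen after their values were seen and not tested. Fgf10 was 1.64 and 1.88 times higher in mouse 1 than in mouse 2 in DPPIV- and DPPIV+ FAPs. Fgfr3 was 1.65 and 1.57 times higher in mouse 1, and Fgfr4, with 5 to 17 reads per library, 2.27 and 3.44 times. Fgf18 went the other way, with ratios of mouse 1 to mouse 2 of 0.780 and 0.747. Fgf7 and Fgfr1 were nearly level, with ratios of 1.04 and 1.06 for Fgf7 and of 0.985 and 0.960 for Fgfr1. With 1 mouse on each side, these ratios describe the animals only.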
